A study of Homo sapiens with 6 samples.

Results

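Genes of carbon dioxide hydration, bicarbonate uptake and lactate export were followed in the small cell lung cancer line DMS-53, of human origin, after treatment with iron chelators. The genes were CA2, CA9, CA12, SLC16A1, SLC16A3, SLC4A4, SLC4A7 and BSG (8 in all), and every probe set whose gene symbol in the platform annotation was, or included, one of these names was taken. The annotation listed 18 of the 54675 probe sets of the array under 5 of these genes: 1 for CA2, 7 for CA12, 5 for SLC4A4, 4 for SLC4A7 and 1 for BSG. It gave no probe set to CA9, SLC16A1 or SLC16A3 in the table used, and these 3 genes were not analysed here. Cells were kept for 24 h in RPMI control medium, in this medium with 250 µM desferrioxamine (DFO), an iron-binding siderophore, or in this medium with 25 µM Dp44mT, a thiosemicarbazone that binds iron and copper. Each condition has 2 Affymetrix arrays, named set 1 and set 2 as in their titles. The doses of the chelators differ by design, DFO being given at the higher dose because it enters cells poorly. All values come from 1 cell line. The labels do not say whether the 2 arrays of a condition are separate cultures, so the tests rest on array-to-array spread alone, and this may be technical. In RNA of a whole culture, fewer cells of a kind and less RNA per cell cannot be told apart.

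Carbonic anhydrases interconvert carbon dioxide and water with bicarbonate and protons. CA2 works in the cytosol, whereas CA9 and CA12 are anchored in the plasma membrane with the catalytic domain outside the cell, and both are known as genes raised by hypoxia in tumours. Monocarboxylate transporters of the SLC16 family carry lactate out of the cell together with a proton, and basigin, the product of BSG, is the partner that brings MCT1 and MCT4 (SLC16A1 and SLC16A3) to the membrane. SLC4A4 and SLC4A7 encode the sodium-bicarbonate cotransporters NBCe1 and NBCn1, which bring bicarbonate into the cell and so oppose its acidification. Because prolyl hydroxylases need iron to mark the hypoxia-inducible factors (HIF) for degradation, iron chelators act on the same factors as low oxygen.

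The bases before the transcription start are shown for SLC4A7, the member that stood farthest below control under Dp44mT, and for CA12, the carbonic anhydrase measured by the most probe sets. Each stretch is the 250 bases upstream of a RefSeq start in GRCh38.p14, written 5′ to 3′ on the strand of the gene (the minus strand for both), and capitals mark matches to ACGTG or GCGTG, the core letters of HIF binding sites, on either strand. The SLC4A7 stretch lies at chr3:27484385-27484634 and the CA12 stretch at chr15:63381847-63382096.
SLC4A7: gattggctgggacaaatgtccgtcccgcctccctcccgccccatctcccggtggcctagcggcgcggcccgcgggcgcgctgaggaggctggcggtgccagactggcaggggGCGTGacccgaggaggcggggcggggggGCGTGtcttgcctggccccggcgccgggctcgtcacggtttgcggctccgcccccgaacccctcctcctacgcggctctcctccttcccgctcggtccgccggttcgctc
CA12: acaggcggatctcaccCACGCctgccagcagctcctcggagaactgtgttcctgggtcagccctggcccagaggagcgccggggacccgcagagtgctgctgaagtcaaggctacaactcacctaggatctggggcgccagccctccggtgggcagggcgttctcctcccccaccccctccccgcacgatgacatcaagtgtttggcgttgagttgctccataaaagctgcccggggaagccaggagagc
The SLC4A7 stretch held 2 matches and the CA12 stretch 1. A second RefSeq start of SLC4A7 had 0 matches, the 5 starts of SLC4A4 had 0 each, and the 2 starts of BSG had 0 and 6, the 6 including 1 palindrome counted on both strands. Such letters were common: 43.2% of 35116 windows of the same length held at least 1 match. A match is a description of the letters and not evidence of binding.

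The arrays differed in brightness, with medians of 88.9 and 88.8 in control and between 49.9 and 85.5 in the 4 chelator arrays, the DFO and Dp44mT arrays of set 2 being the dimmest. Values are therefore given as quantile normalized log2(intensity + 16), called the level below, and differences are differences of mean levels. The treatments themselves were visible in known HIF targets: VEGFA, which encodes an angiogenic growth factor, rose by 2.49 with DFO and by 2.33 with Dp44mT, NDRG1 by 2.11 and 2.02, and EGLN3 by 2.75 and 2.46 (adjusted p between 0.0174 and 0.0431 in limma). TFRC, the transferrin receptor gene that the design text names as iron-responsive, stood at 0.84 and 0.70 and did not pass the test for either chelator. The 8 neuroendocrine markers that the annotation listed, such as CHGA, SYP and NCAM1, all lay above the filter on low values. They did not move together. ENO2, a neuronal enolase of glycolysis, rose by 1.74 with DFO and by 2.03 with Dp44mT (adjusted p = 0.0426 and 0.0217), whereas INSM1, a neuroendocrine transcription factor gene, fell by 3.37 with Dp44mT (adjusted p = 0.0154) and stood at −2.21 with DFO (adjusted p = 0.0523). The other 6 were not called with either chelator, nor was any marker of the other lists. Sums over a marker list are given on the normalized scale (levels turned back to intensities) and, where they bear on a result, on the deposited scale too. The neuroendocrine sum was 10389 and 12975 in control, 8366 and 8593 in DFO and 7524 and 7326 in Dp44mT, with INSM1 the brightest marker in control. The normalized sum of 7 fibroblast markers was 1309 and 646 in the control arrays, 994 and 1235 in the chelator arrays of set 1, and 2541 and 3202 in the DFO and Dp44mT arrays of set 2. On the deposited scale these sums were 1602 and 814, 1268 and 1342, and 1867 and 1759. Most of the fibroblast sum gained in set 2 came from COL1A2, COL3A1, DCN and POSTN. LUM was at a level of 6.74 in the set 2 control and at 6.51 and 6.28 in DFO and Dp44mT of set 2. FBN1 was at 5.80, 5.65 and 5.80 on these arrays. For 5 endothelial markers, of which CDH5 lay below the filter, the normalized sums were 786 and 389 in control. They were 725 and 746 in the set 1 chelator arrays and 1695 and 2098 in those of set 2. The deposited sums were 929 and 480, 957 and 816, and 1223 and 1166. Most of the endothelial sum gained in set 2 came from PECAM1, at a level of 8.04 in control, 10.50 in DFO and 10.87 in Dp44mT of that set. VWF and TEK also stood higher in both set 2 chelator arrays than in the set 2 control. KDR was at 5.72, 6.80 and 5.48 on these arrays, and CDH5 at 4.62, 4.35 and 4.59. Of 4 leukocyte markers, 3 lay above the filter (PTPRC did not), and their normalized sums ran from 234 to 364 over the 6 arrays. Of 2 red cell markers, HBB and ALAS2, both lay above it, with normalized sums from 375 to 595. The normalized sum of epithelial markers (4 of 4 above the filter) ran from 18677 to 20969.

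No member probe set was called changed. Of the 18, 13 had a mean level at or above the filter limit of 5.55 and were tested, and 5 lay below it. At an adjusted p under 0.05, 0 of the 13 passed for DFO against control, where 0.588% of the 41006 probe sets tested passed, and 0 of the 13 passed for Dp44mT against control, where 1.63% passed. At an unadjusted p under 0.05, 1 of 13 stood out for DFO (11.1% of all probe sets) and 4 of 13 for Dp44mT (21.5% of all). The median difference of the 13 was −0.06 for DFO and 0.03 for Dp44mT, beside −0.03 and 0.01 for all probe sets tested. The members that had the larger differences belonged to 3 genes: SLC4A7 stood below control, and single probe sets of CA12 and SLC4A4 stood above it. The 95% intervals had a median half-width of 0.68 over all probe sets tested, and those of single probe sets were narrower or wider.

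**Figure D1:**
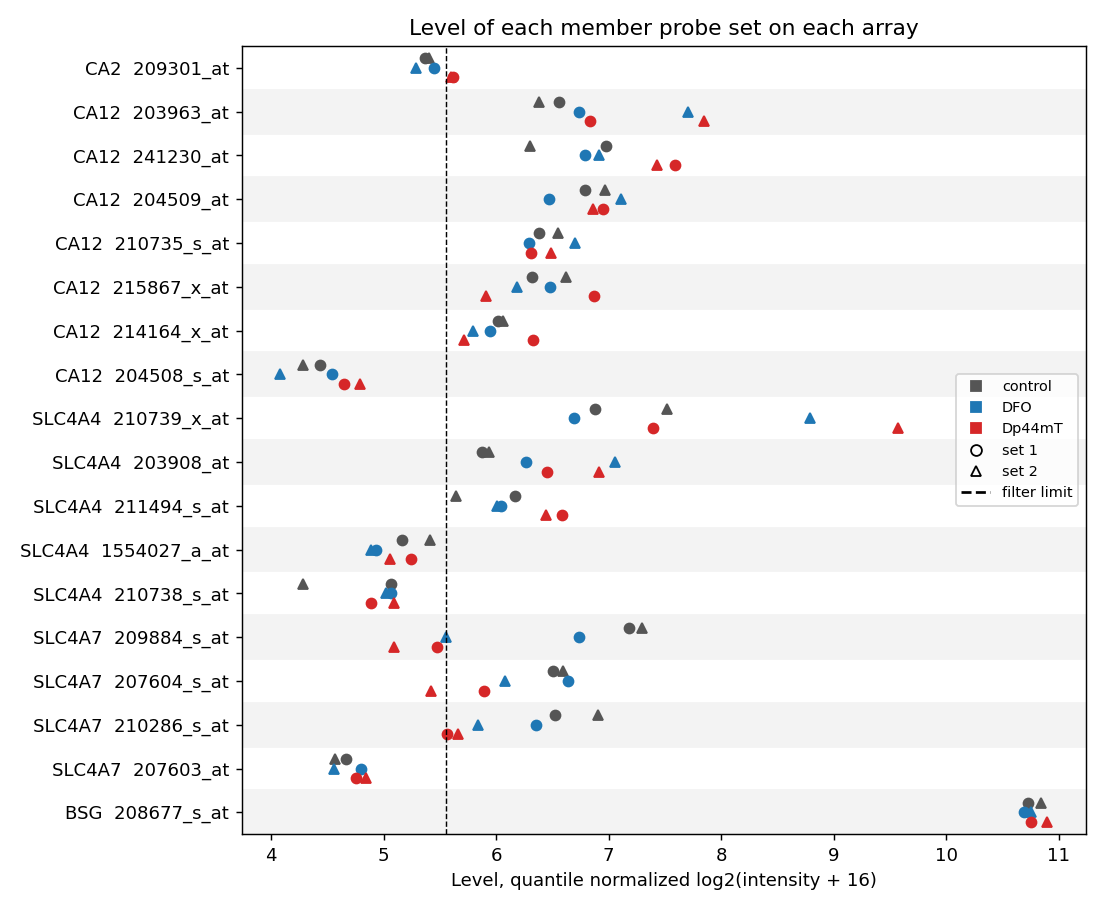
Level of the 18 member probe sets on each array, as quantile normalized log2(intensity + 16) on the horizontal axis; colours give the condition, circles set 1 and triangles set 2, and the dashed line the filter limit of 5.55. The red Dp44mT points of SLC4A7 209884_s_at, 207604_s_at and 210286_s_at lie left of both grey control points, and the BSG points lie together near the right edge.

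SLC4A7, the gene of the bicarbonate importer NBCn1, stood farthest below control of the members, without passing the test. Probe set 209884_s_at had a level of 7.18 and 7.30 in the control arrays, 6.73 and 5.56 in the DFO arrays and 5.48 and 5.09 in the Dp44mT arrays of sets 1 and 2. On the deposited scale these were intensities of 158 and 171 in control, 105 and 27.2 in DFO and 32.6 and 11.8 in Dp44mT. Both chelator arrays of each kind lay below both control arrays on either scale. Both Dp44mT arrays lay below both DFO arrays on the normalized scale only. The deposited Dp44mT intensity of set 1 (32.6) lay above that of DFO in set 2 (27.2). The difference from control was −1.95 for Dp44mT (SE 0.41, 95% interval −2.99 to −0.92, adjusted p = 0.0879) and −1.10 for DFO (SE 0.41, 95% interval −2.13 to −0.06, adjusted p = 0.424). On this scale the Dp44mT value is 3.87-fold below control, and the Dp44mT intensities were of the order of the pseudocount of 16. It stood at place 1888 by p among the 41006 probe sets of that comparison. Relative to the control array of the same set, the Dp44mT difference was −1.71 in set 1 and −2.20 in set 2, whereas that of DFO was −0.45 in set 1 and −1.74 in set 2.

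A further pair of SLC4A7 probe sets ran the same way with Dp44mT. Probe set 210286_s_at was at 6.52 and 6.91 in control, 6.35 and 5.84 in DFO and 5.56 and 5.66 in Dp44mT, so that again neither chelator overlapped control. Its difference was −1.11 for Dp44mT (SE 0.27, adjusted p = 0.106) and −0.62 for DFO (SE 0.27, adjusted p = 0.484). By set, DFO stood at −0.17 and −1.07 and Dp44mT at −0.96 and −1.25, and without the DFO array of set 2 the DFO difference was −0.36. Probe set 207604_s_at was at 6.51 and 6.59 in control, 6.64 and 6.08 in DFO and 5.89 and 5.42 in Dp44mT. There the DFO arrays lay on both sides of control (−0.19, adjusted p = 0.825), and the Dp44mT arrays lay below it (−0.89, SE 0.29, adjusted p = 0.166). The remaining probe set, 207603_at, lay between 4.56 and 4.84 on the 6 arrays, below the filter limit, and was not tested.

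Arrays that did not overlap were common in these data. Over the 13 members, 3 had both Dp44mT arrays below both control arrays, all of SLC4A7, and the share over all probe sets tested was 32.8%. For DFO, 3 of 13 lay below control without overlap (SLC4A7 209884_s_at and 210286_s_at and CA12 214164_x_at), against 27.8% of all. These 3 SLC4A7 probe sets read the same gene and are not replicates of the treatment. With only the control and Dp44mT arrays in the fit, 209884_s_at passed (adjusted p = 0.0479). Without both set 2 chelator arrays, which leaves 1 array per chelator, its difference was −1.76. Over the alternatives that left out no single array (1 of them, a crossed block, added after seeing the data), its adjusted p ran from 0.0185 to 0.136, and with single arrays left out from 0.0479 to 0.534, its difference lying between −2.52 and −1.20 in all of them.

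CA12, the extracellular carbonic anhydrase XII gene, gave no common direction over its 6 tested probe sets. Probe set 203963_at was at 6.56 and 6.38 in control, 6.74 and 7.70 in DFO and 6.83 and 7.85 in Dp44mT. All 4 chelator arrays lay above both control arrays, but most of the distance came from set 2, where DFO stood 1.32 and Dp44mT 1.47 above control, against 0.18 and 0.27 in set 1. The differences of group means were 0.75 for DFO (SE 0.46, adjusted p = 0.641) and 0.87 for Dp44mT (SE 0.46, adjusted p = 0.329). The arrays with the high CA12 values, DFO and Dp44mT of set 2, are those with the highest sums of fibroblast and endothelial markers given above, and the part of those markers in the CA12 values was not tested. Without both set 2 chelator arrays the differences of 203963_at were 0.27 and 0.36.

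Another CA12 probe set, 241230_at, was at 6.98 and 6.30 in control, 6.79 and 6.91 in DFO and 7.59 and 7.43 in Dp44mT. Both Dp44mT arrays lay above the other 4, and the DFO arrays lay between the control values. The difference from control was 0.87 for Dp44mT (SE 0.28, 95% interval 0.17 to 1.56, adjusted p = 0.166) and 0.21 for DFO (SE 0.28, adjusted p = 0.802). In Dp44mT it was 0.61 in set 1 and 1.12 in set 2, and 0.53 without the control array of set 2. The other 4 tested CA12 probe sets (204509_at, 210735_s_at, 215867_x_at and 214164_x_at) had differences between −0.17 and 0.03 for DFO and between −0.08 and 0.03 for Dp44mT. For 215867_x_at the sets disagreed, with a Dp44mT difference of 0.55 in set 1 and −0.72 in set 2. The last, 204508_s_at, lay between 4.08 and 4.79, below the filter.

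CA2, the cytosolic enzyme gene, was read by 209301_at alone, at 5.37 and 5.41 in control, 5.45 and 5.29 in DFO and 5.62 and 5.60 in Dp44mT. Both Dp44mT arrays lay above the other 4 on this normalized scale only. Deposited intensities were 28.3 and 31.3 in control, 29.7 and 20.2 in DFO and 37.6 and 22.0 in Dp44mT, close to the pseudocount. The set 2 Dp44mT array thus lay below both control arrays before normalization. The mean level of 5.46 lay under the filter limit, so CA2 was not tested.

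SLC4A4, the gene of the electrogenic cotransporter NBCe1, had 3 tested probe sets, all with mean levels above control. Probe set 203908_at was at 5.87 and 5.93 in control, 6.26 and 7.05 in DFO and 6.45 and 6.92 in Dp44mT. All chelator arrays lay above both control arrays, with differences of 0.76 for DFO (SE 0.33, 95% interval −0.07 to 1.58, adjusted p = 0.495) and 0.78 for Dp44mT (SE 0.33, 95% interval −0.04 to 1.60, adjusted p = 0.251). By set, DFO stood at 0.39 and 1.12 and Dp44mT at 0.57 and 0.98, and without the DFO array of set 2 the DFO difference was 0.36. The part of the fibroblast and endothelial markers, whose sums were highest on the set 2 chelator arrays, was not tested here either. Probe set 211494_s_at, at 6.17 and 5.64 in control, was at 6.04 and 6.01 in DFO and at 6.58 and 6.44 in Dp44mT. Its Dp44mT arrays lay above the other 4 on the normalized scale. Deposited intensities overlapped, at 64.9 and 40.0 in control, 54.5 and 41.8 in DFO and 88.4 and 47.2 in Dp44mT. The Dp44mT difference was 0.61 (SE 0.24, adjusted p = 0.233), beside 0.12 for DFO. Without the control array of set 2 the Dp44mT difference was 0.34.

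The SLC4A4 probe set 210739_x_at spread more than any other member tested. Its levels were 6.88 and 7.52 in control, 6.70 and 8.79 in DFO and 7.40 and 9.57 in Dp44mT. The high values were again those of the set 2 chelator arrays, and set 1 lay within or next to the control range. Dp44mT stood 0.51 above control in set 1 and 2.05 in set 2, and DFO −0.19 and 1.27, so that the differences of group means, 1.28 and 0.54, had an SE of 0.94 each (adjusted p = 0.429 and 0.849). Names ending in _x_at mark probe sets whose probes can also match other transcripts, per the Affymetrix naming. Fibroblast and endothelial marker sums were highest on the same arrays, and their part was not tested. Probe sets 1554027_a_at and 210738_s_at lay between 4.28 and 5.41 and were below the filter.

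In all, 2 of 13 members lay above control without overlap in DFO on the normalized scale (CA12 203963_at and SLC4A4 203908_at). The share over all probe sets was 17.0%. In Dp44mT 4 of 13 did (these and CA12 241230_at and SLC4A4 211494_s_at), where the share was 28.5%. Deposited intensities of CA12 241230_at and SLC4A4 211494_s_at in Dp44mT overlapped those of control.

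BSG, whose product accompanies the lactate transporters, was the brightest member and the most even. Its single probe set, 208677_s_at, was at 10.73 and 10.84 in control, 10.69 and 10.75 in DFO and 10.75 and 10.90 in Dp44mT. Both chelators overlapped control, and the differences from control were −0.06 for DFO (95% interval −0.53 to 0.40, adjusted p = 0.916) and 0.04 for Dp44mT (95% interval −0.43 to 0.51, adjusted p = 0.899). On the deposited scale the intensities ran from 1026, in the Dp44mT array of set 2, to 2705, in the control array of set 2.

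**Figure D2:**
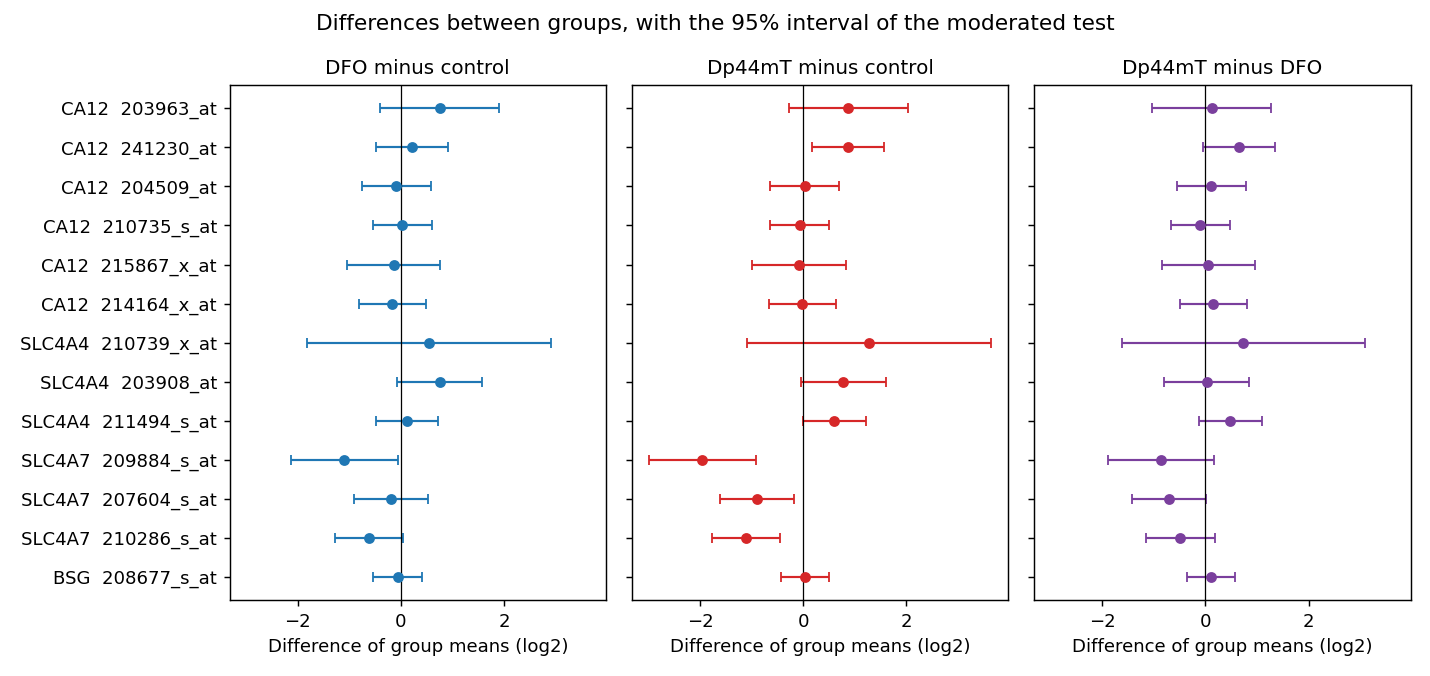
Difference of group mean levels (log2) for the 13 tested member probe sets, with points for the estimate and bars for the 95% interval of the moderated test, in 3 panels for DFO minus control, Dp44mT minus control and Dp44mT minus DFO. The SLC4A7 rows lie left of 0 in each panel, down to −1.95 for 209884_s_at with Dp44mT, the wide bar belongs to SLC4A4 210739_x_at, and none of the differences passed at an adjusted p under 0.05.

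Dp44mT and DFO were also compared directly, with the caution that their doses differ. No probe set passed in limma (0% of 41006), and 0 of the 13 members had an unadjusted p under 0.05, against 3.34% (1368) of all. The 3 SLC4A7 probe sets stood lower in Dp44mT than in DFO without overlap of the arrays on the normalized scale. The differences were −0.86 for 209884_s_at (95% interval −1.89 to 0.18), −0.70 for 207604_s_at (−1.41 to 0.01) and −0.48 for 210286_s_at (−1.15 to 0.18). Deposited intensities of 209884_s_at overlapped (Dp44mT of set 1 at 32.6, DFO of set 2 at 27.2), as did those of 207604_s_at (49.0 and 44.2). Those of 210286_s_at were narrowly apart (35.5 and 35.8). These 3 were the only ones of the 13 members to lie lower without overlap on the normalized scale, where the share over all probe sets was 12.4%. CA12 241230_at (0.65, 95% interval −0.04 to 1.35), SLC4A4 211494_s_at (0.49, −0.12 to 1.09) and BSG (0.10, −0.36 to 0.57) stood higher in Dp44mT without overlap on the normalized scale. These were 3 of 13, against 13.0% of all. Deposited intensities of Dp44mT and DFO overlapped for each of these 3. Those of BSG were lower in Dp44mT than in DFO, at 1951 and 2226 in set 1 and 1026 and 1189 in set 2. The intervals of all 13 included 0, which does not show that the chelators acted alike on these genes.

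Among the relatives of these genes, few passed the test. Of 10 tested carbonic anhydrases other than CA2, CA9 and CA12, 0 passed for either chelator (median 0.27 for DFO and 0.33 for Dp44mT). CA10, which encodes a carbonic anhydrase-related protein without catalytic activity, stood at 7.37 and 7.58 in control, 6.92 and 5.91 in DFO and 5.74 and 4.61 in Dp44mT. Its arrays fell into separate ranges for the 3 conditions, with differences of −1.06 for DFO (adjusted p = 0.525) and −2.30 for Dp44mT (SE 0.49, adjusted p = 0.0889). Without both set 2 chelator arrays, which leaves 1 array per chelator, the Dp44mT difference of CA10 was −1.74. CA13, a cytosolic enzyme gene, stood at 1.04 for Dp44mT (SE 0.28, adjusted p = 0.126), CA5B, the gene of a mitochondrial enzyme, at 0.91 (SE 0.21, adjusted p = 0.0970), and CA8, a further catalytically inactive relative, at 0.47 for DFO (SE 0.18, adjusted p = 0.435).

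Transporters showed the same lack of calls. None of 5 tested SLC16 genes, 6 SLC4 genes, 4 sodium-proton exchangers of the SLC9 family or 20 subunits of the V-ATPase proton pump passed for either chelator in limma (0 in each list). At an unadjusted p under 0.05 the counts were 1, 0, 1 and 0 for DFO and 0, 1, 1 and 0 for Dp44mT. The V-ATPase subunits lay closest together, from −0.27 to 0.33 for DFO and from −0.38 to 0.44 for Dp44mT, with medians of −0.02 and −0.11. SLC4A11, a membrane transporter gene of the SLC4 family, stood at −1.02 for Dp44mT (SE 0.24, adjusted p = 0.103), and SLC9A8, which encodes a sodium-proton exchanger of inner membranes, at −0.97 (SE 0.21, adjusted p = 0.0880). SLC16A14, an orphan member of the monocarboxylate transporter family, stood at 9.18 and 8.45 in DFO and at 7.21 and 6.56 in Dp44mT, against 7.48 and 7.33 in control. DFO thus lay above control by 1.41 (SE 0.35, adjusted p = 0.241) and Dp44mT below it, at −0.52 (SE 0.35, adjusted p = 0.399). Without both set 2 chelator arrays, which leaves 1 array per chelator, the DFO difference of SLC16A14 was 1.77.

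Genes of glucose supply and pyruvate use were the ones called near this group. Of 8 genes fixed as companions of lactate and pH handling, 1 rose and 0 fell with DFO, and 2 rose and 0 fell with Dp44mT. At an unadjusted p under 0.05 the counts were 3 for DFO and 4 for Dp44mT. They include 2 genes that the naming rule leaves out. LDHA stood at 0.78 with DFO and 0.81 with Dp44mT (adjusted p = 0.260 and 0.114). EMB stood at −1.24 with Dp44mT (adjusted p = 0.175) and, not counted for DFO, at −0.68 there. SLC2A1, the glucose transporter GLUT1 gene, rose by 2.01 with DFO (SE 0.22, adjusted p = 0.0400) and by 1.69 with Dp44mT (SE 0.22, adjusted p = 0.0374). PDK1, whose kinase restrains the entry of pyruvate into mitochondria, rose by 1.69 with Dp44mT (SE 0.25, adjusted p = 0.0457) and stood at 1.93 with DFO (adjusted p = 0.0539). The DFO difference of PDK1 passed under 6 of the alternatives, among them the pseudocount of 64 (adjusted p = 0.0267) and the replicate block (adjusted p = 0.0429). The 6 include the crossed block (adjusted p = 0.0340), added after seeing the data. Over the alternatives that left out no single array, its adjusted p reached 0.943. The calls of SLC2A1, and that of PDK1 with Dp44mT, were lost on the deposited scale and with any single array left out, and the differences kept their sign. Without both set 2 chelator arrays, which leaves 1 array per chelator, the SLC2A1 differences were 1.90 with DFO and 1.49 with Dp44mT. That of PDK1 with Dp44mT was 1.55.

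**Figure D3:**
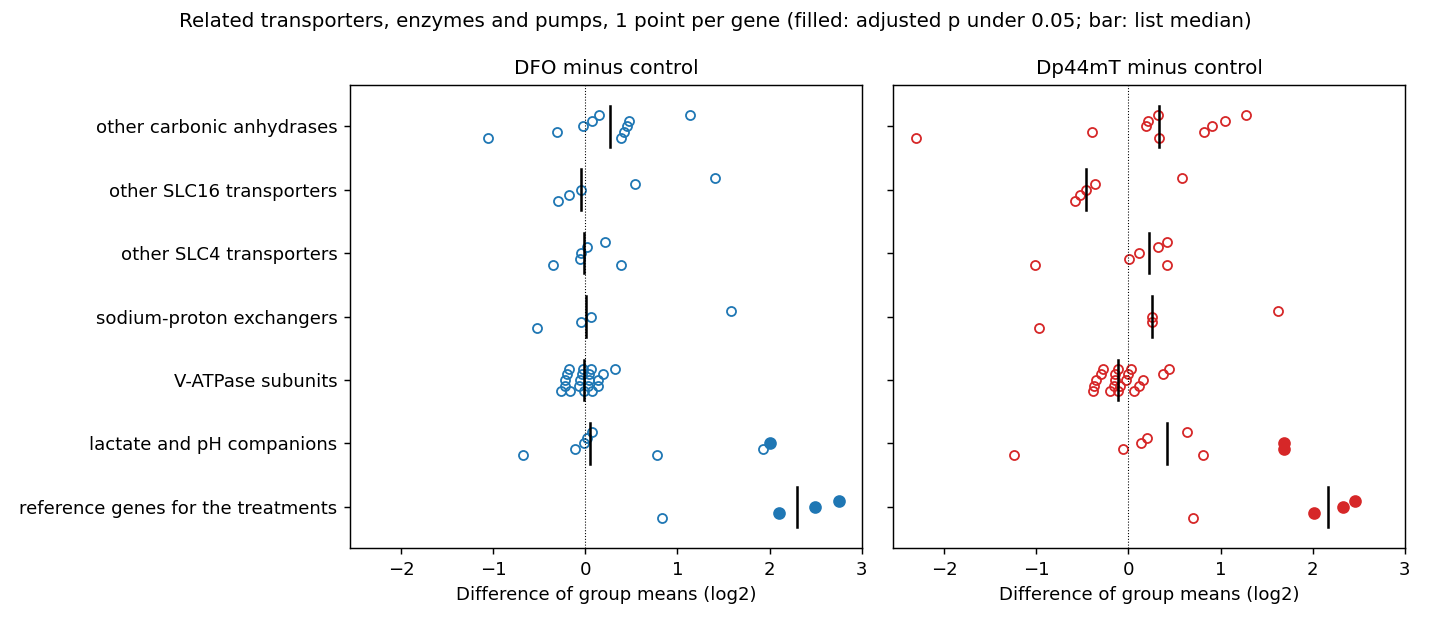
Difference from control (log2) of the tested genes of 6 lists of relatives and of the 4 reference genes, 1 point per gene, with DFO on the left and Dp44mT on the right; filled points passed at an adjusted p under 0.05 and bars are list medians. Filled points appear among the companion genes (SLC2A1 and PDK1) and the reference genes, and the V-ATPase subunits lie between −0.38 and 0.44.

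Genes whose levels ran most like those of the brightest CA12 and SLC4A7 probe sets over the 6 arrays were looked up by Pearson correlation. For CA12 203963_at these were ARHGEF4, DYRK1A, MED13, OSMR and TRPM3 (r from 0.996 to 0.999), and 2824 of 32236 probe sets had an r above 0.9. For SLC4A7 209884_s_at, a probe set added after its values were seen, they were TM2D1, DPY19L2P2, GPR27, RIMBP2 and EOGT (r of 0.999 each), with 4741 of 32239 above 0.9. With 6 arrays that share 3 conditions and 2 sets, such values describe these arrays only.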

How the data were processed

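Total RNA of 6 samples (2 each of control, DFO and Dp44mT) was hybridized to Affymetrix U133 Plus 2.0 arrays. The authors deposited 1 linear intensity per probe set and array. The submitters' processing notes name Affymetrix Expression Console 1.1; the summarization and scaling are not given in the sources used here. Because the array medians differed, log2(intensity + 16) was quantile normalized across the 6 arrays (limma 3.58.1, R 4.3.3). Fold changes of dim probe sets are understated on this scale. Probe sets with a mean below the 25th percentile (5.55) were left out, leaving 41006. The comparisons used two-sided moderated tests of limma on a model of 3 groups, with 3 residual degrees of freedom and 2.52 prior ones, and Benjamini-Hochberg adjustment over all probe sets tested, at 0.05. The code was tested on simulated data. With 2 arrays against 2, the smallest two-sided p of exact permutation is 0.333, so none was run.

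The annotation gives 1 symbol to 41097 probe sets, several to 1801 and none to 11777. In the lists of relatives, a gene is its probe set with the highest mean among those with 1 symbol. The rule for naming genes took every member probe set and up to 4 genes of each list, those called or else those with the smallest p; of the latter, those with an unadjusted p under 0.05 are given. The members and lists were chosen with earlier results of these data known. Upstream sequences are from RefSeq. Alternatives changed the scaling, pseudocount, filter, probe set choice, block, arrays and variance trend.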

Additional observations from a re-analysis of the deposited data

Results flagged for a closer look

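SLC16A14, the monocarboxylate transporter relative, differed between the chelators: both DFO arrays lay above both control arrays and both Dp44mT arrays lay below them. The direct difference, Dp44mT minus DFO, was −1.93 (SE 0.35, 95% interval −2.80 to −1.06), which placed it at rank 33 by p among 41006 probe sets, and it did not pass the adjustment (adjusted p = 0.969 in limma). No probe set of the array passed in that comparison. Groups of 2 arrays are too small to look for single arrays that stand apart.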

How the results depend on the processing

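Over 39 member differences (13 probe sets in 3 comparisons), 417 refits that left out no single array made 22 changes of sign. The 234 refits that left out 1 array made 30 changes of sign. The 9 differences of SLC4A7 changed sign only for 207604_s_at with DFO. A lone array is assumed to vary like the other groups. Without both set 2 chelator arrays each chelator has 1 array, and the spread comes from the 2 control arrays alone. The number of member probe sets called for Dp44mT was 1 (SLC4A7 209884_s_at) with only the 2 groups compared. Leaving out 1 DFO array repeats that fit for Dp44mT against control, because a lone DFO array adds no spread. Over the whole array, the counts called for DFO and Dp44mT were 241 and 670. They were 31 (24 higher, 7 lower) and 39 (15 higher, 24 lower) on the deposited scale (median difference over all probe sets −0.30 and −0.46), and 144 and 363 (183 higher, 180 lower) with array medians subtracted. With a pseudocount of 1 they were 156 and 342, with 64 they were 437 and 1434, with probe sets below the median left out 393 and 1114, and with an intensity trend 571 and 1866. With only the 2 groups compared the DFO count was 57, and without both set 2 chelator arrays the Dp44mT count was 3164. With single arrays left out they ran from 0 to 57 and from 0 to 469 (1697 to 5779 and 3553 to 12670 at an unadjusted p under 0.05). The causes of these moves were not tested. SLC2A1, PDK1, EGLN3, VEGFA and NDRG1 kept their direction in 180 refits, of which 75 ended a call and 6 made one (PDK1 with DFO).

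The set number does not mark a stated batch. Arrays of the same number deviated from their group means together in the 2 chelators (r = 0.83 over 41006 probe sets) and oppositely in control and DFO (−0.23) and control and Dp44mT (−0.33). With the replicate block the Dp44mT count was 1243, no member call changed, and PDK1 passed with DFO (adjusted p = 0.0429). With the control numbers crossed, an alternative added after seeing the data, 809 probe sets passed for DFO and 5790 for Dp44mT, 3 of them members.

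The member differences and that of CA8 that changed sign were these, SLC4A4 210739_x_at moving farthest. On the deposited scale the DFO values were −0.22 for CA12 210735_s_at, −0.032 for CA12 241230_at and −0.076 for SLC4A4 211494_s_at, the Dp44mT values were −0.42 for CA12 204509_at, −0.68 for BSG and −0.35 for CA8, and Dp44mT minus DFO was −0.10 for SLC4A4 203908_at, −0.098 for CA12 203963_at, −0.028 for CA12 204509_at, −0.20 for BSG and −0.071 for CA12 215867_x_at. With array medians subtracted, Dp44mT gave −0.044 for CA12 204509_at, −0.31 for BSG and 0.072 for CA12 214164_x_at, and Dp44mT minus DFO gave −0.054 for BSG. Without both set 2 chelator arrays, DFO gave 0.092 for SLC4A7 207604_s_at, −0.18 for CA12 210735_s_at, −0.50 for SLC4A4 210739_x_at and 0.0047 for CA12 215867_x_at, Dp44mT gave −0.030 for BSG, 0.29 for CA12 214164_x_at and 0.40 for CA12 215867_x_at, and Dp44mT minus DFO gave 0.020 for CA12 210735_s_at. With single arrays left out, DFO values ran from −0.41 to 0.23 (CA12 204509_at), −0.47 to 0.092 (SLC4A7 207604_s_at), −0.18 to 0.24 (CA12 210735_s_at), −0.50 to 1.59 (SLC4A4 210739_x_at), −0.15 to 0.39 (SLC4A4 211494_s_at), −0.29 to 0.0084 (CA12 215867_x_at) and −0.13 to 0.55 (CA12 241230_at). Dp44mT values ran from −0.062 to 0.12 (CA12 204509_at), −0.030 to 0.11 (BSG), −0.16 to 0.025 (CA12 210735_s_at), −0.32 to 0.29 (CA12 214164_x_at) and −0.57 to 0.40 (CA12 215867_x_at). Dp44mT minus DFO ran from −0.37 to 0.42 (SLC4A4 203908_at), −0.39 to 0.63 (CA12 203963_at), −0.20 to 0.43 (CA12 204509_at), −0.30 to 0.11 (CA12 210735_s_at), −0.35 to 1.82 (SLC4A4 210739_x_at), −0.15 to 0.46 (CA12 214164_x_at) and −0.42 to 0.54 (CA12 215867_x_at).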
